A study of Rattus norvegicus with 11 samples.

Results

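Astrocytes are the glial cells that surround synapses and vessels in the hippocampus, and the genes described here are 9 whose transcripts commonly mark them: Gfap, Aqp4, S100b, Gja1, Aldh1l1, Atp1b2, Fabp7, Ndrg2 and Vim. They were represented by every probe set of the array with 1 platform gene symbol equal to one of these names, which gave 13 of the 15923 probe sets. Aqp4 and Gja1 had 3 probe sets each and the other genes 1 each, so no gene was lost. Hippocampal total RNA was hybridised to 11 arrays, 5 with samples from rats on a ketogenic diet (KDiet in the titles), a high-fat diet with little carbohydrate, and 6 with samples from rats on a control diet (Ctr). The labels describe the ketogenic diet as preventing epileptic seizures, and give no strain, sex, age or length of feeding. Whether the samples are separate animals is not stated, and the p-values therefore cover only the spread among samples, which may be technical. The design asks which hippocampal transcripts the diet changes.

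Astrocytes take up glutamate and potassium released by neurons, pass metabolites between vessels and neurons, and move water through channels on the processes that wrap vessels. Gap junctions join them into networks, and an intermediate filament scaffold, made of glial fibrillary acidic protein, vimentin and partner proteins, gives them shape. The filament genes are known to rise in reactive astrocytes, the state that follows injury or seizures.

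Markers of other cell types were read on the same arrays. Of the 12 neuron markers listed, 11 had a tested probe set, as had 9 of 10 oligodendrocyte, 7 of 10 microglial, 11 of 14 vascular and meningeal, and 7 of 11 choroid plexus and ependymal markers. All 13 astrocyte marker probe sets were above the testing level, a mean of 5.17 on the log2 scale, and no diet mean of any of them lay below it. In total RNA of a whole region, fewer cells of a type and less RNA per cell cannot be told apart. Values are log2 signals after quantile normalization unless stated, differences are ketogenic minus control, and "called" means an adjusted p below 0.05 in the limma fit over all 11899 tested probe sets. Ketogenic replicate 3, the only sample whose title ends in an additional letter b, stood apart from the other ketogenic arrays. Its score on the first principal component (34.5% of the variance) was -2.82, with the remaining ketogenic arrays at 18.6 to 25.7 and the control arrays at -17.3 to -10.6. As a measure of RNA integrity that rises with degradation, the 3 prime over 5 prime log2 ratio of Gapdh control probe sets was 0.13 to 0.34 on ketogenic and -0.07 to 0.15 on control arrays (exact permutation test, two-sided, p = 0.00649, adjusted p = 0.00649 over 4 array measures). For actin it was 0.75 to 0.99 on ketogenic arrays and 0.49 to 0.75 on control arrays (exact permutation test, p = 0.00216, the smallest that 5 against 6 samples allow, adjusted p = 0.00433). Ketogenic replicate 3 had the lowest ketogenic Gapdh ratio, within the control range. Both ratios and the spike-in signals that follow were taken from the values as deposited. Spike-in controls, RNA added during processing, had mean log2 signals of 8.51 to 8.91 on ketogenic and 8.24 to 8.54 on control arrays (exact permutation test, p = 0.00649, adjusted p = 0.00649), and the median log2 signal as deposited was 6.32 to 6.46 on ketogenic and 6.48 to 6.56 on control arrays (exact permutation test, p = 0.00216, adjusted p = 0.00433). The actin ratio of every ketogenic array (lowest 0.7545) lay above that of every control array (highest 0.7498). Diet and RNA integrity can therefore hardly be told apart on these arrays. With these RNA integrity ratios as covariates 6 of the 11899 probe sets were called, so a call lost in that fit says nothing of its cause. The part of RNA quality in the differences below was not tested beyond such fits.

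Gfap, Aqp4 and Fabp7 were the 3 genes called, all lower on the ketogenic diet, and the 250 bases before the starts listed for them in the promoter table are shown because the data turn on these members. They come from RefSeq (GRCr8), read 5′ to 3′ on the strand of the gene, and capitals mark matches to 5 short motifs searched on both strands. Gfap lies on the minus strand with its window at chr10:88361662-88361911. The table has 2 starts for Aqp4, also on the minus strand, with windows at chr18:6798843-6799092 (start a) and chr18:6797927-6798176 (start b). The Fabp7 window is at chr20:37669356-37669605 on the plus strand. The Fabp7 start and both Aqp4 starts lie inside the annotated span of their gene.
Gfap: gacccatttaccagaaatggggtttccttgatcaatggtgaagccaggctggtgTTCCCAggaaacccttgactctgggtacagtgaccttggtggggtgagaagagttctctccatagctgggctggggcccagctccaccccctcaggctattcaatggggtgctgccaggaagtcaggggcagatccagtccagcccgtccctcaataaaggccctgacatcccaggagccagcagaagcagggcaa
Aqp4 start a: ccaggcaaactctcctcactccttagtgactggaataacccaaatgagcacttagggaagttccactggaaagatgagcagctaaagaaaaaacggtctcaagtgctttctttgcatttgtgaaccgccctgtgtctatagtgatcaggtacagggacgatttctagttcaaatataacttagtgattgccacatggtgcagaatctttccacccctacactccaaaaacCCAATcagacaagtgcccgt
Aqp4 start b: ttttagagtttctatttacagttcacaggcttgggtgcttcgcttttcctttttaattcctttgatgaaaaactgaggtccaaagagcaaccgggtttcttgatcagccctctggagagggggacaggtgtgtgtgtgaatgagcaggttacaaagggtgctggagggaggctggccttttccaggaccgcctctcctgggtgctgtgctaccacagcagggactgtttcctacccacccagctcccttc
Fabp7: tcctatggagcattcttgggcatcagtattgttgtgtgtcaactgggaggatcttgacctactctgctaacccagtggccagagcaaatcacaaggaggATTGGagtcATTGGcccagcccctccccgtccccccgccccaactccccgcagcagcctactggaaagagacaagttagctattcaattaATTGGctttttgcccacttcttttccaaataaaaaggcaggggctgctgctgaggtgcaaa
The motifs were the TATA box (TATAAA), the CCAAT box (CCAAT), a STAT element (TTCNNNGAA), an AP-1 element (TGANTCA) and an RBPJ element (TGGGAA), and no match overlapped a match of another motif. The Gfap window held 1 RBPJ match, 196 bases before the start, and the Fabp7 window 3 CCAAT matches, at 151, 142 and 61 bases. At Aqp4, start a had 1 CCAAT match 20 bases before it, and start b had no match. Over all 11 windows of the 9 genes, CCAAT was present in 6, TATAAA in 3, TGGGAA in 3, TGANTCA in 1 and TTCNNNGAA in 0. Of all 33469 promoter windows of this length, 34.0% held CCAAT, 12.9% TATAAA, 22.1% TGGGAA, 6.34% TGANTCA and 7.67% TTCNNNGAA.

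Of the 13 astrocyte marker probe sets, 3 were called, 0 higher and 3 lower, which is 3 of 9 genes. The share called over the whole table was 16.5%, with 8.62% higher and 7.87% lower. The median difference of the 13 probe sets was -0.27, against -0.00 over all tested probe sets, and 10 of 13 had a negative sign. In 2 of the 13, the Aqp4 probe set 1372190_at and Fabp7, the diets did not overlap, where 6.99% of all tested probe sets did not. Sizes were small, with called signals 1.26-fold to 1.31-fold lower on the ketogenic diet.

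**Figure D1:**
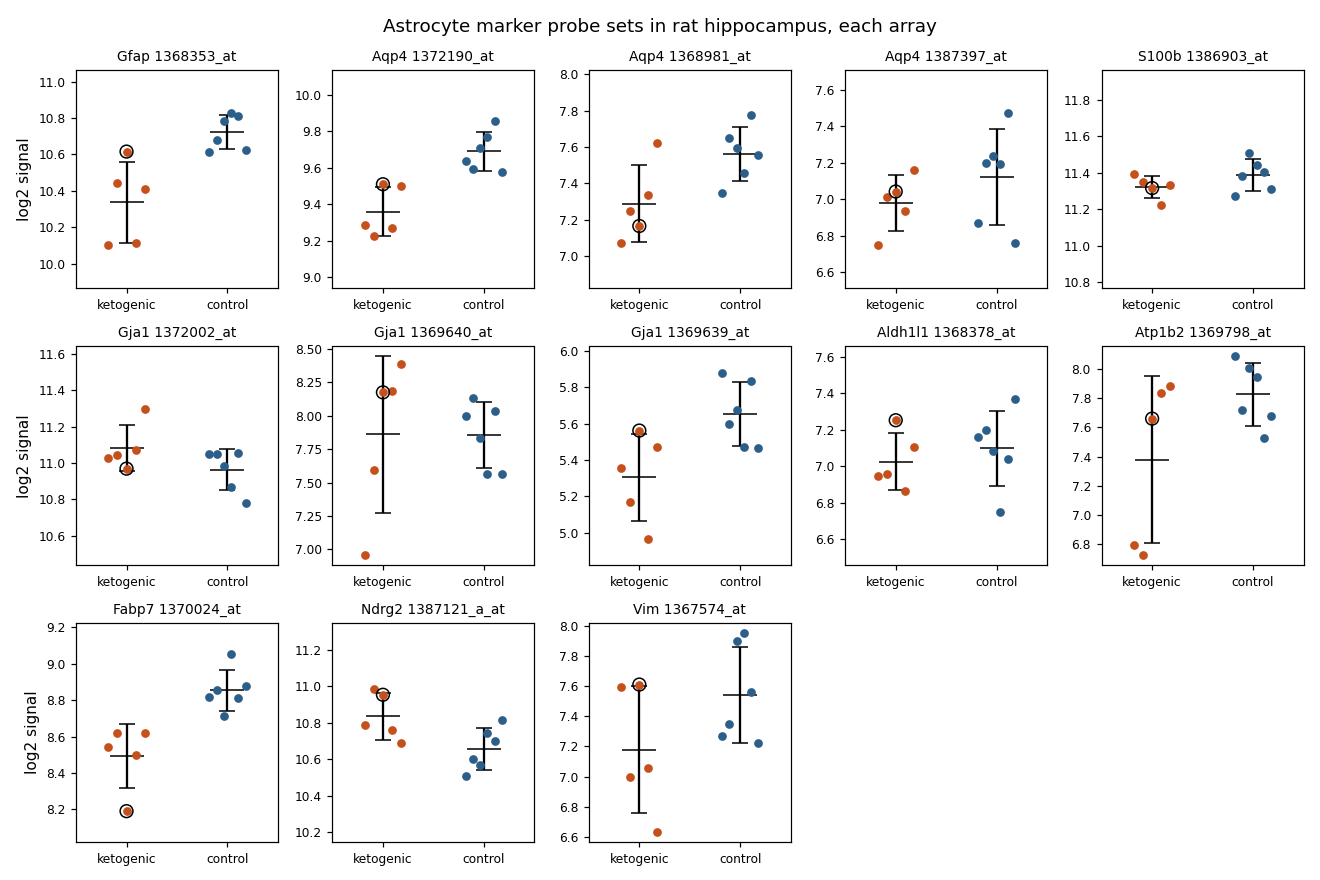
Log2 signal (vertical axis) of each astrocyte marker probe set on the 5 ketogenic (left) and 6 control arrays (right), 1 point per array, with mean and SD in black and ketogenic replicate 3 ringed. Each panel has its own axis range. The 5 ketogenic arrays lie below every control array for Fabp7 and for Aqp4 1372190_at.

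Gfap (gene 24387, chromosome 10, 88352987 to 88361661 in GRCr8) encodes glial fibrillary acidic protein, the main intermediate filament of mature astrocytes. Its probe set, 1368353_at, had log2 signals of 10.10, 10.44, 10.62, 10.12 and 10.41 on ketogenic replicates 1 to 5, against a lowest value of 10.62, a median of 10.73 and a highest of 10.83 on the control arrays. Of the ketogenic arrays 4 lay below all controls, and replicate 3 was level with the lowest control. Gfap was 1.31-fold lower on the ketogenic diet, with means of 10.34 ± 0.22 (SD, n = 5) for ketogenic and 10.72 ± 0.10 (SD, n = 6) for control arrays (log2 difference -0.39, SE 0.09, adjusted p = 0.0110, limma). Without ketogenic replicate 3 the difference was -0.45 (adjusted p = 0.00155, limma). In the linear signals as deposited, before quantile normalization, Gfap was at 1116, 1504, 1668, 1173 and 1385 on ketogenic replicates 1 to 5, against 1526 to 1776 on control arrays, so that there the ranges overlapped through replicate 3. The call ended when arrays were centred on their 75th percentile instead (-0.24, adjusted p = 0.0658, limma). It ended too with the RNA integrity ratios as covariates (-0.19, SE 0.13, adjusted p = 0.895, limma).

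Vim encodes vimentin, an intermediate filament protein of immature and reactive astrocytes that vessel, meningeal and ependymal cells also make. Its probe set, 1367574_at, had values of 7.59, 7.00, 7.61, 7.06 and 6.63 on the ketogenic arrays, against 7.22, 7.45 and 7.95 as the lowest, median and highest control value. The diets overlapped, with ketogenic replicates 2, 4 and 5 below all controls and replicates 1 and 3 above the control median. The difference was -0.36 (SE 0.18, 95% interval -0.75 to 0.03) and was not called (adjusted p = 0.178, limma). Vim was called lower with the level of the array spike-in controls as a covariate (-0.96, adjusted p = 0.0154, limma), an alternative chosen after seeing the data, and with array weights (-0.52, adjusted p = 0.0424, limma).

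Aqp4 (gene 25293, chromosome 18, 6782389 to 6799034) encodes aquaporin-4, the water channel of the astrocyte processes around vessels. Probe set 1372190_at had values of 9.29, 9.22, 9.51, 9.27 and 9.50 on the ketogenic arrays, against a lowest of 9.58, a median of 9.67 and a highest of 9.85 on control arrays. All 5 ketogenic arrays were below all 6 controls. The signal was 1.26-fold lower on the ketogenic diet, with means of 9.36 ± 0.14 (SD, n = 5) and, on the control diet, 9.69 ± 0.11 (SD, n = 6), and a log2 difference of -0.33 (SE 0.07, adjusted p = 0.00969, limma). Without ketogenic replicate 3 it was -0.37 (adjusted p = 0.00285, limma).

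The other Aqp4 probe sets had the same sign and were not called. For 1368981_at the ketogenic values were 7.07, 7.25, 7.17, 7.33 and 7.62, against 7.35 to 7.78 on control arrays with a median of 7.57. Ketogenic replicate 5 lay among the controls and the other 4 below them, and the difference was -0.27 (SE 0.10, adjusted p = 0.0816, limma). This probe set was called without ketogenic replicate 5 (-0.36, adjusted p = 0.0348, limma) and on the values as deposited (-0.32, adjusted p = 0.0377, limma). For 1387397_at the ketogenic arrays spanned 6.75 to 7.16 and the control arrays 6.76 to 7.48, with a difference of -0.14 (95% interval -0.40 to 0.12, adjusted p = 0.432, limma). The call of 1372190_at ended with centring on the 75th percentile (-0.17, adjusted p = 0.0714, limma) and with the RNA integrity ratios as covariates (-0.13, adjusted p = 0.905, limma). On the values as deposited its difference was -0.20 (adjusted p = 0.0394, limma).

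Gja1 encodes the main connexin, or gap junction protein, of astrocytes, and its 3 probe sets did not move together. Probe set 1372002_at had values of 11.03, 11.04, 10.97, 11.07 and 11.30 on ketogenic arrays, against 10.78, 11.02 and 11.06 as the lowest, median and highest on control arrays. Ketogenic replicates 4 and 5 were above all controls, and the difference of 0.12 (95% interval -0.02 to 0.26) was not called (adjusted p = 0.216, limma). The dim probe set 1369639_at had values of 5.35, 5.17, 5.56, 4.97 and 5.47 on ketogenic arrays, against 5.46 to 5.88 on control arrays, a difference of -0.35 (95% interval -0.67 to -0.03, adjusted p = 0.122, limma). The third, 1369640_at, ran from 6.96 to 8.39 on ketogenic and from 7.56 to 8.13 on control arrays, a difference of 0.00 (95% interval -0.44 to 0.45). Under the other scalings these probe sets were called in opposite directions. On the values as deposited 1372002_at was higher by 0.23 (adjusted p = 0.00815, limma) and 1369639_at was at -0.53 (adjusted p = 0.0371, limma). Centred on the 75th percentile they were at 0.26 (adjusted p = 0.00471, limma) and -0.50 (adjusted p = 0.0459, limma). These probe sets thus give no single direction for Gja1.

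Atp1b2 encodes the beta 2 subunit of the sodium pump, also known as an adhesion molecule on glia. Its probe set, 1369798_at, had values of 6.79, 6.73, 7.66, 7.83 and 7.88 on ketogenic arrays, against a lowest of 7.52, a median of 7.83 and a highest of 8.09 on control arrays. Ketogenic replicates 1 and 2 were far below every control, while the other 3 lay within the control range. The difference was -0.45 (SE 0.20, 95% interval -0.88 to -0.01) and was not called (adjusted p = 0.138, limma). With the RNA integrity ratios as covariates it was 0.065 (adjusted p = 0.994, limma).

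Fabp7 (gene 80841, chromosome 20, 37667125 to 37673299) encodes the brain fatty acid-binding protein, found in radial glia, neural progenitors and astrocytes. On ketogenic arrays its probe set, 1370024_at, had values of 8.54, 8.62, 8.19, 8.50 and 8.62, against 8.71, 8.84 and 9.05 as the lowest, median and highest on control arrays. All 5 ketogenic arrays lay below all 6 controls. Fabp7 was 1.28-fold lower on the ketogenic diet (8.49 ± 0.18, SD, n = 5) than on the control diet (8.86 ± 0.11, SD, n = 6), a log2 difference of -0.36 (SE 0.08, adjusted p = 0.0137, limma). Replicate 3 was the lowest ketogenic array here, unlike for Gfap and Aqp4 1372190_at, where it was the highest, and without it the difference was -0.28 (adjusted p = 0.00876, limma). Fabp7 was also called under both other scalings (-0.30 as deposited, -0.27 centred on the 75th percentile). With the RNA integrity ratios as covariates it was at -0.59 (SE 0.15, adjusted p = 0.475, limma) and with the spike-in level at -0.23 (adjusted p = 0.237, limma).

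S100b encodes a calcium-binding protein of astrocytes that some oligodendrocyte lineage cells also make. Its values were 11.39, 11.35, 11.32, 11.22 and 11.33 on ketogenic arrays, against 11.27, 11.39 and 11.51 as the lowest, median and highest on control arrays. The diets overlapped almost throughout, with a difference of -0.07 (95% interval -0.17 to 0.04, adjusted p = 0.355, limma), whose sign turned under both other scalings (0.068 as deposited, 0.10 when centred on the 75th percentile) without a call. Aldh1l1, a folate enzyme widely used to mark astrocytes, ran from 6.86 to 7.25 on ketogenic and from 6.75 to 7.37 on control arrays (difference -0.07, 95% interval -0.30 to 0.16, adjusted p = 0.673, limma).

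Ndrg2, a member of the NDRG family expressed in astrocytes, had values of 10.79, 10.98, 10.95, 10.76 and 10.69 on ketogenic arrays, against a lowest of 10.51, a median of 10.65 and a highest of 10.82 on control arrays. Ketogenic replicates 2 and 3 were above all controls, and the other 3 overlapped them. The difference of 0.18 (SE 0.07, 95% interval 0.04 to 0.32) was not called (adjusted p = 0.0781, limma). It rose past the threshold on the values as deposited (0.29, adjusted p = 0.0292, limma), centred on the 75th percentile (0.32, adjusted p = 0.0210, limma) and without control replicate 6 (0.21, adjusted p = 0.0427, limma).

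**Figure D2:**
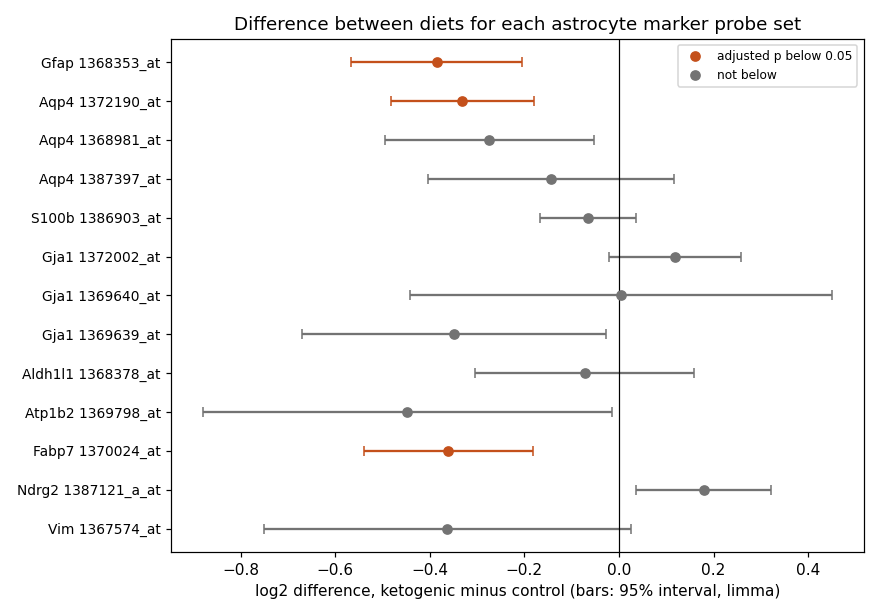
Log2 difference, ketogenic minus control (horizontal axis), of each astrocyte marker probe set with its 95% interval from limma, coloured where the adjusted p was below 0.05. Gfap, Aqp4 1372190_at and Fabp7 are coloured, at -0.39, -0.33 and -0.36.

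Calls among the markers depended on the scaling of the arrays. On the values as deposited 7 of the 13 probe sets were called, 2 higher and 5 lower, and centred on the 75th percentile 4 were called, 2 higher and 2 lower. With the RNA integrity ratios as covariates 0 of the 13 were called by limma, and over all 11899 tested probe sets 6 were called. In that fit 2 of the 13 had an unadjusted p below 0.05, as had 767 of the 11899 tested probe sets. With the spike-in level as covariate 3 were called lower, Gfap, Aqp4 1372190_at and Vim. The share called over all tested probe sets was 16.5% as reported. It was 23.6% on the values as deposited, 22.9% centred on the 75th percentile and 11.4% with the spike-in level. The median difference of the 13 probe sets was -0.22 on the values as deposited, -0.19 centred on the 75th percentile and -0.06 with the ratios, against -0.06, -0.03 and -0.00 over all tested probe sets.

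**Figure D3:**
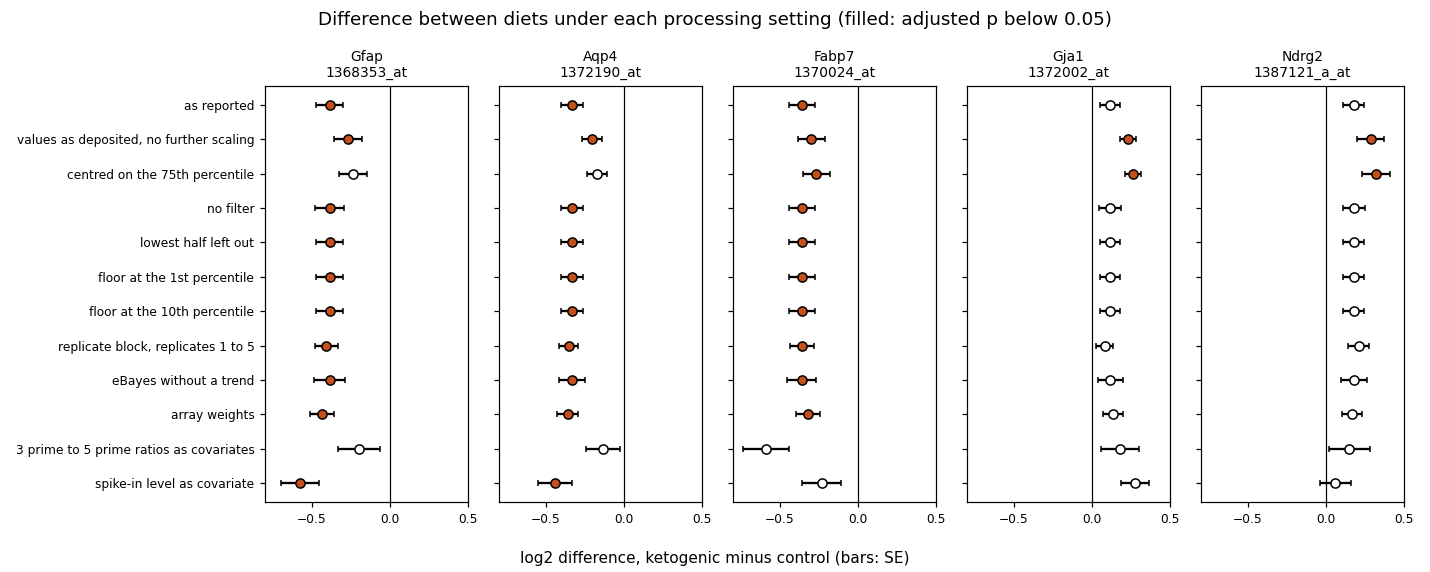
Log2 difference, ketogenic minus control (horizontal axis), with its SE, of 5 astrocyte marker probe sets under each processing setting (rows), filled where the adjusted p was below 0.05. Gfap and Aqp4 1372190_at lie nearer 0 when centred on the 75th percentile and with the RNA integrity ratios, and Gja1 1372002_at and Ndrg2 are filled on the right under both other scalings.

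Across arrays of the same diet the correlations among the 9 markers were mixed in sign. With 11 arrays they cannot show whether the markers vary as a single unit. Using the probe set with the highest mean for each gene and deviations from the diet means over 11 arrays, the 36 pairs had a median Pearson r of 0.03, and 20 were positive. Gfap and Aqp4 had the highest Pearson value (r = 0.67, exact permutation p = 0.0605 within diets, adjusted p = 0.637 over 36 pairs, and Spearman rho = 0.60, exact permutation p = 0.0846, adjusted p = 0.609), with r = 0.65 without the 2 arrays farthest from the Gfap median and r = 0.87 on the 6 control arrays. Gja1 and Ndrg2 had the lowest Pearson value (r = -0.76, exact permutation p = 0.00780, adjusted p = 0.281, and rho = -0.61, exact permutation p = 0.0736, adjusted p = 0.609), with r = -0.60 without the 2 arrays farthest from the Gja1 median. By rank the order differed, with Aqp4 and Vim highest (rho = 0.64, exact permutation p = 0.0634, adjusted p = 0.609, r = 0.26) and Atp1b2 and Ndrg2 lowest (rho = -0.78, exact permutation p = 0.0144, adjusted p = 0.517, r = -0.48). By either measure 0 of the 36 pairs passed after adjustment, and 1 pair by r and 1 by rho had an unadjusted exact p below 0.05. Of 8396 other genes, those whose deviations followed Gfap most closely over the 11 arrays were Tmx4 (r = 0.92), the purine receptor gene P2rx7 (r = 0.92), Mif4gd (r = 0.92), Znrd2 (r = 0.91) and the transcription factor gene Zic1 (r = 0.91). They were the highest of a search over all genes and are given as a description. Of these, Tmx4 was called lower (-0.22, adjusted p = 0.0482, limma), and P2rx7 was at -0.31 (adjusted p = 0.114, limma).

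Other genes of astrocytes, for transmitter uptake, metal binding, metabolism and transcription, showed few calls. Of 34 listed 27 were tested, each by the probe set with the highest mean, and 1 rose and 2 fell, with a median of -0.05. Among all 8397 genes 16.9% were called, 8.85% higher and 8.04% lower, and the median was -0.00. Mt3, a metallothionein of the brain that binds zinc, fell by 0.30 (SE 0.05, adjusted p = 0.00239, limma), and it was not called when centred on the 75th percentile (-0.14, adjusted p = 0.103, limma). Slc6a9, the glial glycine transporter, fell by 0.55 (SE 0.10, adjusted p = 0.00578, limma). Nfia, a transcription factor of astrocyte development, rose by 0.36 (SE 0.11, adjusted p = 0.0437, limma), and leaving out 1 array at a time kept that call in 3 of 11 fits. Glul, the enzyme that makes glutamine from glutamate, was at -0.00 (SE 0.06, adjusted p = 0.989, limma). The glutamate transporter genes Slc1a2 and Slc1a3 were at -0.13 (adjusted p = 0.500, limma) and 0.23 (adjusted p = 0.255, limma). Without ketogenic replicate 3 the list had 3 higher and 3 lower, where 26.6% of all tested probe sets were called. With the RNA integrity ratios as covariates 0 were called (limma), with Mt3 at -0.39 (adjusted p = 0.199, limma), Slc6a9 at -0.54 (adjusted p = 0.664, limma) and Nfia at 0.27 (adjusted p = 0.905, limma).

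A list of genes known mostly from mouse to rise in reactive astrocytes, which holds Gfap and Vim, had 15 of 29 genes tested. In it 0 rose and 5 fell, with a median of -0.33, where 8.04% of all genes were lower. With 1 array left out 1 to 6 of its members were called. There was 1 without ketogenic replicate 4, and there were 6 without ketogenic replicate 3 or control replicate 6. In those fits 6.70%, 26.6% and 16.3% of all tested probe sets were called, in that order. Besides Gfap the members that fell were Sphk1, a kinase that makes sphingosine 1-phosphate (-0.80, SE 0.20, adjusted p = 0.0197, limma), and Plec, which encodes plectin, a linker of intermediate filaments (-0.59, SE 0.16, adjusted p = 0.0249, limma). Synm encodes synemin, a filament partner of vimentin, and was lower by a small margin (-0.21, SE 0.07, adjusted p = 0.0488, limma). Cp encodes the copper carrier ceruloplasmin, which choroid plexus also makes (-1.12, SE 0.36, adjusted p = 0.0472, limma). Its ketogenic mean of 4.82 was below the testing level, so it passed the filter only through its control values. The same holds for Serpina3n and Cd14, with ketogenic means of 4.91 and 5.03, which were not called. The 5 that fell include Cp, and the list median, mean and summed signal include Cp, Serpina3n and Cd14. Leaving out 1 array at a time kept the calls of Synm and of Cp in 2 of 11 fits each, that of Plec in 7 and that of Sphk1 in 10. The list had 9 members lower on the values as deposited, 6 when centred on the 75th percentile and 0 with the ratios as covariates (limma), with 0 higher each time. Of all 11899 tested probe sets 1736, 1379 and 6 were lower at these settings, in that order, against 936 as reported. Of the 14 genes not tested, 8 were below the testing level, Lcn2, Timp1 and Nes among them, and 6 had no probe set with that symbol alone.

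**Figure D4:**
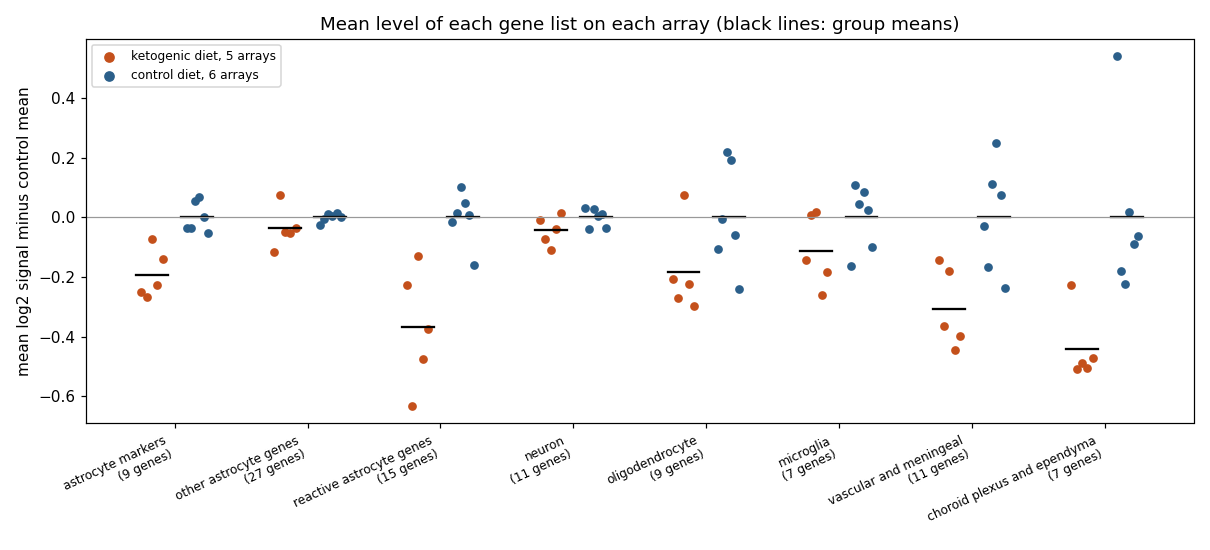
Mean log2 signal of each gene list on each array, relative to the control mean (vertical axis), with ketogenic arrays left and control arrays right of each label and black lines at group means. The 9 astrocyte markers lie between -0.27 and -0.07 on ketogenic and between -0.05 and 0.07 on control arrays, while the 27 other astrocyte genes overlap. The choroid plexus and ependymal list, which includes Cldn2, nearly touches between diets, at -0.51 to -0.227 on ketogenic and -0.225 to 0.54 on control arrays.

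Lists of other cell types were read beside the astrocyte markers, against 16.9% of all genes called, 8.85% higher and 8.04% lower. The mean of the 9 astrocyte markers relative to the control mean ran from -0.27 to -0.07 on ketogenic arrays and from -0.05 to 0.07 on control arrays, and replicate 3 was the ketogenic array nearest the controls. These means did not overlap, but the summed signal of the same 9 genes did, at 13.11 to 13.24 on ketogenic and 13.20 to 13.32 on control arrays on the log2 scale. The mean of the 27 other astrocyte genes ran from -0.12 to 0.07 on ketogenic and from -0.03 to 0.01 on control arrays.

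Of 11 neuron markers 0 rose and 0 fell (limma). An unadjusted p below 0.05 was found for 2 of them, and for 3967 of all 11899 tested probe sets. Under each of the other scalings 4 neuron markers rose. Of the 11899 tested probe sets 1076 rose on the deposited values and 1347 with 75th percentile centring. The neuron marker mean ran from -0.11 to 0.01 on ketogenic and from -0.04 to 0.03 on control arrays. The summed signal of these markers ran from 13.64 to 13.76 on ketogenic and from 13.70 to 13.80 on control arrays. Oligodendrocyte markers had 2 of 9 lower, Mag and Ugt8, with means of -0.30 to 0.08 on ketogenic and -0.24 to 0.22 on control arrays, and summed signals of 13.20 to 13.53 on ketogenic and 13.32 to 13.60 on control arrays. Microglial markers had 2 of 7 lower, Aif1 and Csf1r, while the complement genes C1qc, at 0.33 (adjusted p = 0.0758, limma), and C1qb, at 0.31 (adjusted p = 0.0881, limma), had the opposite sign and were not called. The microglial mean ran from -0.26 to 0.02 on ketogenic and from -0.16 to 0.11 on control arrays, and the summed signal from 9.65 to 9.93 on ketogenic and from 9.81 to 10.05 on control arrays.

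Vascular and meningeal markers, from cells that also make vimentin, had 2 of 11 lower, Col1a1 and Slco1a4, with means of -0.45 to -0.14 on ketogenic and -0.24 to 0.25 on control arrays, and summed signals of 10.02 to 10.38 on ketogenic and 10.31 to 10.75 on control arrays. Choroid plexus and ependymal markers had 3 of 7 lower, Aqp1, Cldn2 and Folr1. The ketogenic mean of Cldn2, 4.98, was below the testing level, so this gene passed the filter only through its control values. The mean of the choroid plexus and ependymal list, which includes Cldn2, nearly touched between diets, at -0.51 to -0.227 on ketogenic and -0.225 to 0.54 on control arrays. Its summed signal overlapped, at 9.30 to 9.98 on ketogenic and 9.69 to 11.32 on control arrays. None of these lists had a member that rose at this setting.

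With 1 array left out the called members numbered 0 to 1 for neurons, 0 to 4 for oligodendrocytes, 0 to 3 for microglia, 2 to 3 for vascular and meningeal cells and 1 to 3 for choroid plexus and ependyma, and with the RNA integrity ratios as covariates each list had 0 (limma). Over all tested probe sets the fits with 1 array left out called 6.70% to 26.6%, and the fit with the ratios called 6 probe sets. Across the 11 fits that each omit an array, Aqp1, Col1a1 and Slco1a4 stayed called in 11, Aif1 in 10, Mag in 9, Cldn2 in 6, Folr1 in 5, Csf1r in 4 and Ugt8 in 3. The part of these cell types in the difference of the astrocyte markers was not tested.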

How the data were processed

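The authors deposited a table of linear intensities per probe set. Their making from the scans is not given in the sources used here. Each array had a trimmed mean (2% off each end) between 150.02 and 150.03, a sign of a common scaling. Array medians of the log2 values spanned 0.24, so arrays were quantile normalized, signals below 5.02 (5th percentile of all values) were raised to that floor, and logarithms to base 2 were taken. The 57 control probe sets and the 25% with the lowest mean were not tested. Diets were compared with limma 3.58.1 in R 4.3.3 (lmFit, then eBayes with trended variance), and two-sided p-values of 11899 probe sets were adjusted by Benjamini-Hochberg. The fit was tested on simulated data with independent noise and no difference in RNA integrity, so that test does not bear on RNA integrity. Of 13101 annotated probe sets 12789 had 1 symbol, updated through gene identifiers with RefSeq (GRCr8, 12754 found), 312 had several, and 2822 of the array were not listed.

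Every marker probe set is described, and of the other lists up to 4 called members in each direction. Synm, the fifth called member of its list, and 3 uncalled genes of glutamate handling were named after their values were seen. The same holds for the uncalled genes C1qc, C1qb, Serpina3n and Cd14. Alternatives were other scalings, filters and floors, a replicate block, array weights, no variance trend, 3 prime to 5 prime ratios as covariates, and leaving out each array. The spike-in covariate was added after seeing the data. Members and lists were chosen with earlier results of these data known. The number of arrays limits the precision. Scan dates or batches are not among the labels, and a batch that follows the diet cannot be told apart from it.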

Additional observations from a re-analysis of the deposited data

Results flagged for a closer look

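Among 42 groups of values (each marker probe set and each list mean, per diet), 4 had an array whose gap to the nearest other was large against the group's range, where chance gives about 1 in 20, or 2.1. Fabp7 on ketogenic replicate 3 was at 8.19, against 8.50 to 8.62 on the other ketogenic arrays. The oligodendrocyte list mean was 0.0753 on ketogenic replicate 3 and -0.30 to -0.21 on the others. The choroid plexus and ependymal list mean was -0.2272 on ketogenic replicate 1, against -0.51 to -0.47 on the other ketogenic arrays. That list was at 0.54 on control replicate 1, against -0.22 to 0.02 on the other control arrays.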

How the results depend on the processing

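Of the 13 marker probe sets, leaving out 1 array at a time kept the calls of Gfap, Aqp4 1372190_at and Fabp7 in 11 of 11 fits, and 3 to 4 were called in each. Over all probe sets these fits called 797 to 3163, against 1962 on all arrays. Without ketogenic replicate 1 the count was 1199, without 2 it was 841, without 3 it was 3163, without 4 it was 797 and without 5 it was 1244. It was 1174 without control replicate 2, 1250 without 3 and 1259 without 5. Array weights gave 3136 calls, and the 3 prime to 5 prime ratios as covariates gave 6 calls, of which 0 were markers. On the values as deposited 7 markers and 23.6% of all tested probe sets were called. There 38.3% of all calls were higher, against 52.3% as reported. Signs turned without a call for Aqp4 1387397_at (0.25) and Atp1b2 (0.065) with the ratios, and for S100b under both other scalings (0.068 as deposited, 0.10 when centred on the 75th percentile). With the ratios Plec (0.061), Cp (0.14) and Ugt8 (0.021) also turned. Gja1 1369640_at, near 0 as reported, was at -0.054 with the replicate block and between -0.13 and 0.23 with 1 array left out, negative without ketogenic replicate 3, 4 or 5 and without control replicate 4 or 6. The causes were not tested.

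Replicate numbers are shared by both diets without a label that pairs them. Deviations of same-numbered arrays correlated at 0.01 to 0.08, other numbers at -0.12 to 0.11, and 2 of 5 ketogenic arrays correlated best with the control of its own number. With the replicate block, on replicates 1 to 5, 1806 probe sets and 3 markers were called, and no call of a marker changed.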
